A study of Homo sapiens with 16 samples.

Results

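ZNF595 encodes a zinc finger protein and lies at the tip of the short arm of chromosome 4. It is 1 of 19775 genes that the array annotation names with a probe set of their own, and it was chosen by its measured rise after azacitidine (AZA) in these arrays. All probe sets whose annotated gene symbols include ZNF595 were taken, which gave 4 of 54613 probe sets. Of these, 227952_at and 1570038_at carry ZNF595 as the only symbol, 1559746_a_at is shared with ZNF718, and 208542_x_at is shared with ZNF718 and ZNF208. Since the gene was picked for its response to AZA, its levels and differences are described here without a test.

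RNA was measured on 16 Affymetrix Human Genome U133 Plus 2.0 arrays in 4 established human acute myeloid leukaemia cell lines, AML-193, HNT-34, KG1a and HL60. Each line received vehicle (DMSO) or 0.5 µM AZA on 3 consecutive days and then grew for 4 days without drug, and all cells grew in a light-labelled medium made for mass spectrometry. Every line and arm had 2 arrays, and nothing in the labels says that these came from separate cultures, so errors and p-values cover only the spread between arrays, which may be technical. Values are log2 signals, and changes are AZA minus vehicle on that scale.

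ZNF595 belongs to the KRAB zinc finger genes, a large family of DNA-binding repressors. Their fingers read DNA sequence, and their KRAB domain recruits the scaffold protein TRIM28, through which the histone methyltransferase SETDB1 and other silencing enzymes are brought to the bound site. The family sits in clusters of related genes, most of them on chromosome 19. AZA is a nucleoside drug that resembles cytidine. Once in DNA it traps the DNA methyltransferases, so methylation at CG pairs is lost as cells divide.

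Because CG pairs are where that methylation sits, the bases just upstream of the start are shown for ZNF595 and for ZNF141 and ZNF718, which lie near it on chromosome 4. Each window holds the 250 bases before the annotated start, 5′ to 3′ on the plus strand, from RefSeq on build GRCh38.p14, with CG pairs in capitals. The windows are chr4:53071-53320 for ZNF595, chr4:337564-337813 for ZNF141 and chr4:127871-128120 for ZNF718. The start used for ZNF718 lies inside the gene as the gene table draws it, so that window is not upstream of every ZNF718 transcript.
ZNF595: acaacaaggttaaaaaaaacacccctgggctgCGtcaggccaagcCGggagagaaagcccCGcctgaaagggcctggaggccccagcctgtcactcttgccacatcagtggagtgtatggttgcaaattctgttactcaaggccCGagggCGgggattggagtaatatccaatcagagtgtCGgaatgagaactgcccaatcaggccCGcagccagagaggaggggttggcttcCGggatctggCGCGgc
ZNF141: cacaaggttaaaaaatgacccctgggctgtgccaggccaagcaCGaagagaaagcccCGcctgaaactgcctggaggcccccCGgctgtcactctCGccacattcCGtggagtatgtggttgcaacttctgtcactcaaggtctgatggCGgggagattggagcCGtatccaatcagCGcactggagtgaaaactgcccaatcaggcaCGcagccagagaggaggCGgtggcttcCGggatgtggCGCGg
ZNF718: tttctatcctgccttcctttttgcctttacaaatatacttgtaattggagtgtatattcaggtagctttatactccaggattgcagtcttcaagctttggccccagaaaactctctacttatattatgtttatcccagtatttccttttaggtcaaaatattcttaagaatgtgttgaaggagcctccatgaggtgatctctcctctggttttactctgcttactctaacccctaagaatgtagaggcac

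The ZNF595 window held 10 CG pairs, close to the median of 11 over the 27303 promoters in the RefSeq table, 51.9% of which held at least as many. The ZNF141 window held 13 and the ZNF718 window held 0. The letters CCAAT, counted on both strands and overlapping none of the other motifs searched, occurred 3 times in the ZNF595 window and 3 times in the ZNF141 window, against 1 time in the ZNF718 window. Only 3.09% of all promoters held CCAAT at least 3 times, and 33% held it at all. GGGCGG, which contains a CG pair, occurred 1 time in the ZNF595 window and in 42.3% of promoters, and TATAAA did not occur there and was present in 11.1% of promoters. These matches are descriptions of the letters and show no binding.

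RNA integrity differed between the arms in AML-193 and in HL60. The arrays carry control probe sets at both ends of the ACTB and GAPDH transcripts, and their 3′ minus 5′ difference is larger in degraded RNA. This difference was 1.27 ± 0.46 with vehicle and 0.20 ± 0.04 with AZA in AML-193, and 0.04 ± 0.01 and 0.72 ± 0.16 in HL60 (SD, n = 2). In HNT-34 it was -0.0033 and -0.10, and in KG1a 0.03 and 0.06. Replicate arrays correlated across tested genes at r = 0.995 to 0.998; genes are not independent replicates. As a check of the labels, PTPRC, the pan-leukocyte CD45 gene, lay between 10.96 and 13.2 in every group. MPO, the myeloperoxidase gene of promyelocytes, was highest with vehicle in HL60, at 14.4. It was at 10.56 in AML-193 (13.67 with AZA), 6.75 in KG1a and 5.90 in HNT-34. CD34, a gene of immature blood cells, was at 12.55 in KG1a and 11.74 in HNT-34 with vehicle, and MECOM at 12.41 in HNT-34. The T-cell gene CD3E lay above the array median in every group, at 7.51 to 9.02, although these are myeloid lines. CD3D, also a T-cell gene, was at 7.41 with vehicle and 9.54 with AZA in KG1a. In the other lines it was at 6.46 to 6.70 with vehicle. CD14, a monocyte gene, was at 5.87 in AML-193 with vehicle, below the array median, and at 7.52 with AZA. The other monocytic genes looked at, LYZ and ITGAM, were high in AML-193 with vehicle, at 11.97 and 10.64. The epithelial gene EPCAM was at most 4.39 in all groups. Of the fibroblast genes looked at, COL1A1 was between 9.29 and 9.94, and COL1A2 between 6.43 and 6.72, below the array median in every group.

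In probe set 227952_at the ZNF595 signal was low on all 8 vehicle arrays and high after AZA in HNT-34, HL60 and KG1a. The vehicle arrays lay between 4.41 and 4.81 in all lines, a span of 0.41. That placed them at the 10.5th to 16.6th percentile of the probe sets on their arrays. Without detection calls a signal this low cannot be told from background, so the differences and ratios given for HNT-34, HL60 and KG1a are of array signal, and the change in transcript may be larger.

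In HNT-34 the vehicle arrays of 227952_at read 4.81 and 4.65, and the AZA arrays 11.25 and 11.16. Both AZA arrays lay more than 6 log2 units above both vehicle arrays, with a smallest gap of 6.34. The mean rose from 4.73 ± 0.11 to 11.2 ± 0.064 (SD, n = 2 arrays each), a difference of 6.47 ± 0.13 (SE of the limma fit over all probe sets), or 88.5 times the signal. Among 14049 genes tested it was the largest rise in signal in this line, ahead of PPBP, a platelet chemokine gene, at 5.56.

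HL60 gave nearly the same picture. Its vehicle arrays read 4.49 and 4.61, and its AZA arrays 11.11 and 10.85, with no overlap and a smallest gap of 6.23. The difference of 6.42 ± 0.13 (85.8 times the signal) was among the largest rises in this line, where CLC, an eosinophil and basophil granule gene, stood at 6.60.

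KG1a reached an intermediate level. The vehicle arrays read 4.79 and 4.64 and the AZA arrays 8.22 and 8.08, again without overlap, with a smallest gap of 3.30. The difference was 3.44 ± 0.13 (10.8 times the signal), and COL14A1, a collagen gene, had the largest rise in this line, 6.77.

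In AML-193 ZNF595 stayed at the vehicle level. The vehicle arrays read 4.51 and 4.41, the AZA arrays 4.85 and 4.46, and the arms overlapped. The difference of 0.20 ± 0.13 was smaller than the gap of 0.39 between the AZA arrays and ranked 3872 of 14049. It was 0.50 with the 3′ minus 5′ difference as a covariate (the integrity covariate). The probe set reached the array median of 6.73 on 6 of 16 arrays, which were the AZA arrays of the other lines, so it met the filter on dim genes only through them.

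**Figure D1:**
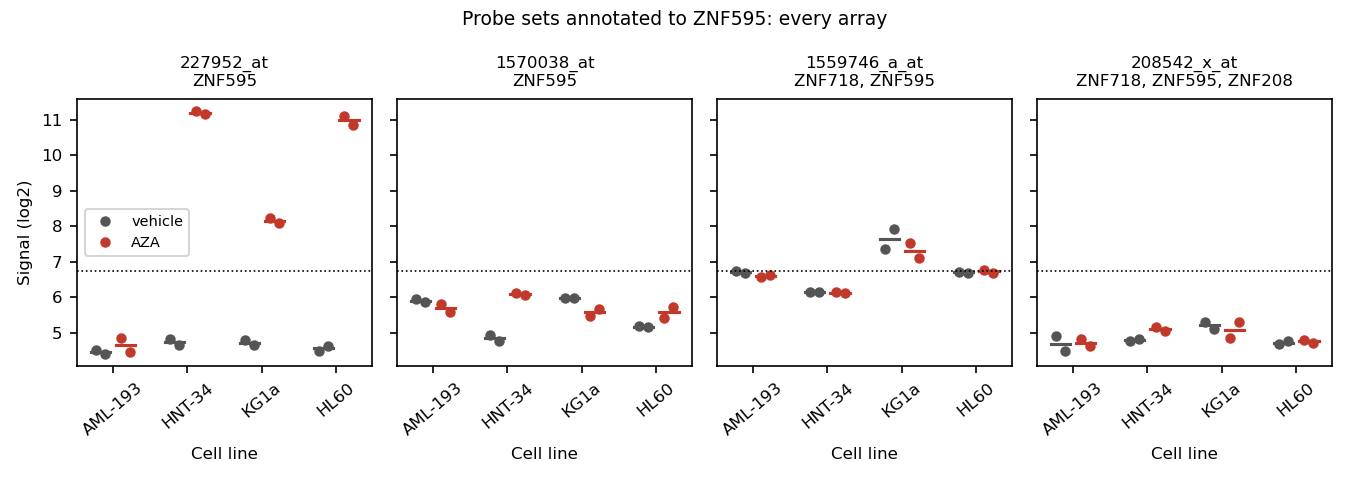
Log2 signal on every array for the 4 probe sets annotated to ZNF595, by cell line, with vehicle in grey and AZA in red, points for arrays, bars for means of 2 arrays and a dotted line at the array median of 6.73. In 227952_at the AZA arrays of HNT-34, HL60 and KG1a stand at 8.08 or more above vehicle arrays at 4.41 to 4.81, while the other 3 probe sets do not show this.

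Ordered by level, the 227952_at groups were HNT-34 with AZA (11.2), HL60 with AZA (11), KG1a with AZA (8.15) and then the other 5 groups between 4.46 and 4.73. The gap between the arrays of the leading pair was 0.05, less than the 0.26 between the HL60 AZA arrays, so these groups did not differ beyond their spread. KG1a with AZA stood 2.82 below HL60 with AZA, and no array lay in the gap of 2.62 between them. The lowest 5 groups were HNT-34 vehicle (4.73), KG1a vehicle (4.71), AML-193 with AZA (4.65), HL60 vehicle (4.55) and AML-193 vehicle (4.46), and each overlapped the next.

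The second probe set with ZNF595 as its only symbol, 1570038_at, gave smaller differences that did not follow the same order of lines. In HNT-34 its arrays read 4.93 and 4.76 with vehicle against 6.12 and 6.06 with AZA, a difference of 1.24 ± 0.12. In HL60 they read 5.18 and 5.15 against 5.42 and 5.73, a difference of 0.41 ± 0.12. Both rises separated the arms, but they were far below the 6.47 and 6.42 of 227952_at.

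In KG1a, where 227952_at rose by 3.44, 1570038_at was lower after AZA. Its arrays read 5.97 and 5.98 with vehicle and 5.47 and 5.67 with AZA, a difference of -0.41 ± 0.12 with no overlap. In AML-193 they read 5.94 and 5.87 against 5.81 and 5.57, a difference of -0.21 ± 0.12. The vehicle levels of this probe set also differed more between lines, from 4.85 in HNT-34 to 5.98 in KG1a, than those of 227952_at. It never reached the array median, with a highest value of 6.12.

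The probe sets shared with other genes showed no comparable rise. For 1559746_a_at, shared with ZNF718, the HNT-34 arrays read 6.15 and 6.14 with vehicle and 6.14 and 6.12 with AZA, and the HL60 arrays 6.71 and 6.69 against 6.77 and 6.69. The arms overlapped in both lines, at differences of -0.01 ± 0.16 and 0.03 ± 0.16. In KG1a the arrays read 7.35 and 7.93 against 7.52 and 7.10, also overlapping (-0.33 ± 0.16), and in AML-193 6.73 and 6.67 against 6.58 and 6.63 (-0.10 ± 0.16).

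The vehicle means of 1559746_a_at, 7.64 in KG1a, 6.70 in AML-193 and in HL60 and 6.14 in HNT-34, were highest and lowest in the same lines as those of both probe sets of ZNF718 alone. The means of 208542_x_at, shared with ZNF718 and ZNF208, lay between 4.69 and 5.20 over all groups. Its largest difference was 0.31 ± 0.16 in HNT-34, where arrays of 4.77 and 4.82 stood against 5.16 and 5.04. Over the 8 group means the SD was 2.98 for 227952_at, 0.42 for 1570038_at, 0.52 for 1559746_a_at and 0.21 for 208542_x_at. The rise of more than 3 log2 units thus rests on a single probe set, and which transcripts each probe set detects was not tested.

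No measured neighbour of ZNF595 on chromosome 4 rose as much as it did in HNT-34, KG1a and HL60, though some smaller rises were called. Of 24 neighbours listed, 21 had a probe set of their own, 47 probe sets in all, and none of these was higher by 1 log2 unit or more in any line. The share of all probe sets with such a rise was not counted, so this count is not read as a trait of the neighbours. Over all 14049 genes tested, 26, 8 and 21 were higher by at least 3 log2 units in HNT-34, KG1a and HL60, ZNF595 among them. The highest of the 47 changes was 0.57 in AML-193 and 0.48 in HNT-34 (both PCGF3, a Polycomb subunit gene), 0.40 in KG1a (IDUA, a lysosomal enzyme gene) and 0.88 in HL60 (GAK, a kinase gene of clathrin uncoating). Probe sets of both genes disagreed: those of PCGF3 ran from -0.55 to 0.57 in AML-193, and those of GAK from -0.23 to 0.88 in HL60.

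**Figure D2:**
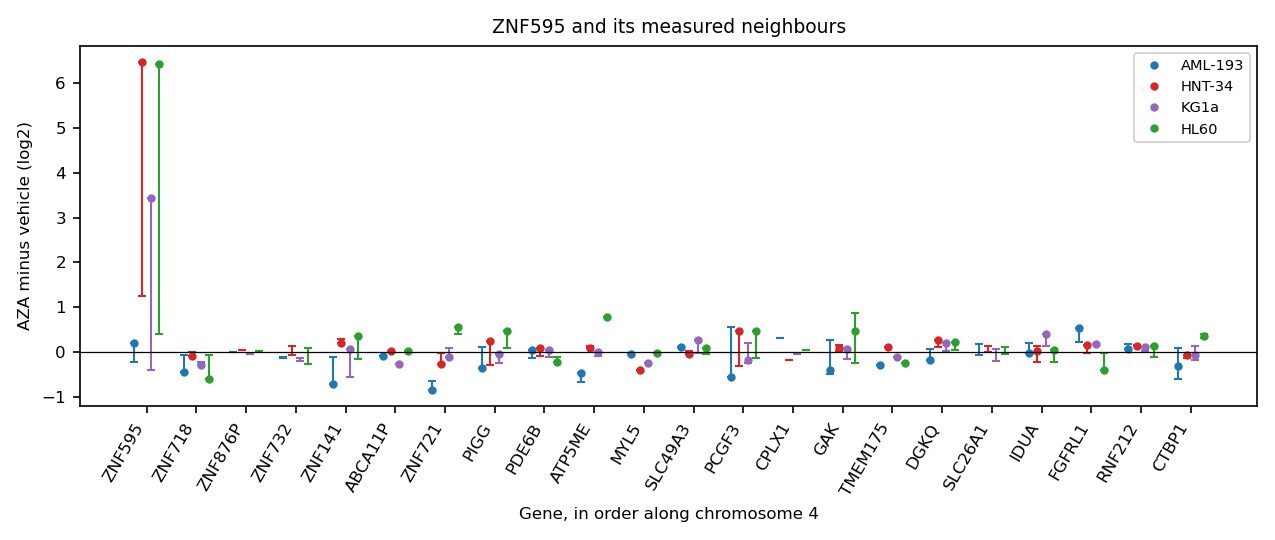
AZA minus vehicle in log2 units for ZNF595 and its 21 measured neighbours in their order along chromosome 4, by cell line. Points show the probe set that stands for a gene where it was tested, and lines run from the lowest to the highest probe set of the gene; ZNF595 reaches 6.47, while no neighbour passes 0.88.

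ZNF718, the next zinc finger gene along the chromosome, did not rise in HNT-34. The probe set with its higher mean read 4.03 and 4.22 there with vehicle and 4.14 and 3.92 with AZA, so the arms overlapped near the floor (-0.09 ± 0.18, limma adjusted p = 0.766). Its other probe set was not at the floor there, at 6.12 and 5.80 against 5.91 and 6.02, and the arms overlapped as well. In KG1a, where ZNF595 was low with vehicle, ZNF718 read 9.78 and 9.70 with vehicle and 9.48 and 9.42 with AZA, a difference that did not pass (-0.29 ± 0.18, adjusted p = 0.378). It fell in HL60, from 8.19 and 8.14 to 7.17 and 7.95 (-0.60 ± 0.18, adjusted p = 0.0153), but this call ended without HL60 vehicle array 1, vehicle array 2 or AZA array 1, with the integrity covariate and in a fit of HL60 alone, and its other probe set gave -0.06. In AML-193 it read 7.39 and 7.53 against 6.98 and 7.04 (-0.45 ± 0.18, adjusted p = 0.0586). Vehicle means on the first probe set ran from 4.13 in HNT-34 through 7.46 in AML-193 and 8.17 in HL60 to 9.74 in KG1a. On the other they were 5.96, 6.20, 6.27 and 7.05, and the arrays of AML-193 and HL60 overlapped.

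ZNF141, whose upstream window resembles that of ZNF595, was low in the lines where ZNF595 rose most. In HNT-34 its brighter probe set read 4.54 and 4.69 with vehicle and 4.84 and 4.79 with AZA (0.20 ± 0.23, adjusted p = 0.591), and in HL60 4.54 and 4.69 against 5.05 and 4.88 (0.36 ± 0.23, adjusted p = 0.24). On this probe set the AZA arrays were higher in both lines, by amounts that did not pass the test. The other probe set of ZNF141 gave 0.29 ± 0.15 in HNT-34 and -0.14 ± 0.15 in HL60, where its arms overlapped. In AML-193 the brighter probe set fell from 7.14 and 6.84 to 6.20 and 6.36 (-0.71 ± 0.23, adjusted p = 0.0253), a call lost without AML-193 vehicle array 1, AZA array 1 or AZA array 2. With the integrity covariate the change was 0.16, of the opposite sign, and the other probe set of ZNF141 gave -0.11 in this line. In KG1a the brighter probe set read 7.76 and 6.73 against 7.32 and 7.29, with the AZA arrays inside the range of the vehicle arrays (0.06 ± 0.23, adjusted p = 0.92). The other read 7.94 and 8.13 there against 7.65 and 7.30, with the arms apart (-0.56 ± 0.15).

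ZNF732 and the pseudogene ZNF876P, which lie between ZNF718 and ZNF141, were at the floor in every line and both arms. Their 3 probe sets read between 3.63 and 4.09 on all 16 arrays, with changes from -0.26 to 0.14, and were not tested because they never reached the array median. ZNF721, the zinc finger gene furthest along, was bright in all lines. Its brighter probe set fell in AML-193 (-0.83 ± 0.16, adjusted p = 0.00135) and rose in HL60 (0.56 ± 0.16, adjusted p = 0.0138, lost with the integrity covariate and without HL60 vehicle array 2 or AZA array 1), and its other probe set gave -0.64 and 0.40. Among these 5 neighbours, therefore, no probe set with a vehicle mean below 5 in a line reached the array median there after AZA, as ZNF595 did in HNT-34, HL60 and KG1a.

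**Figure D3:**
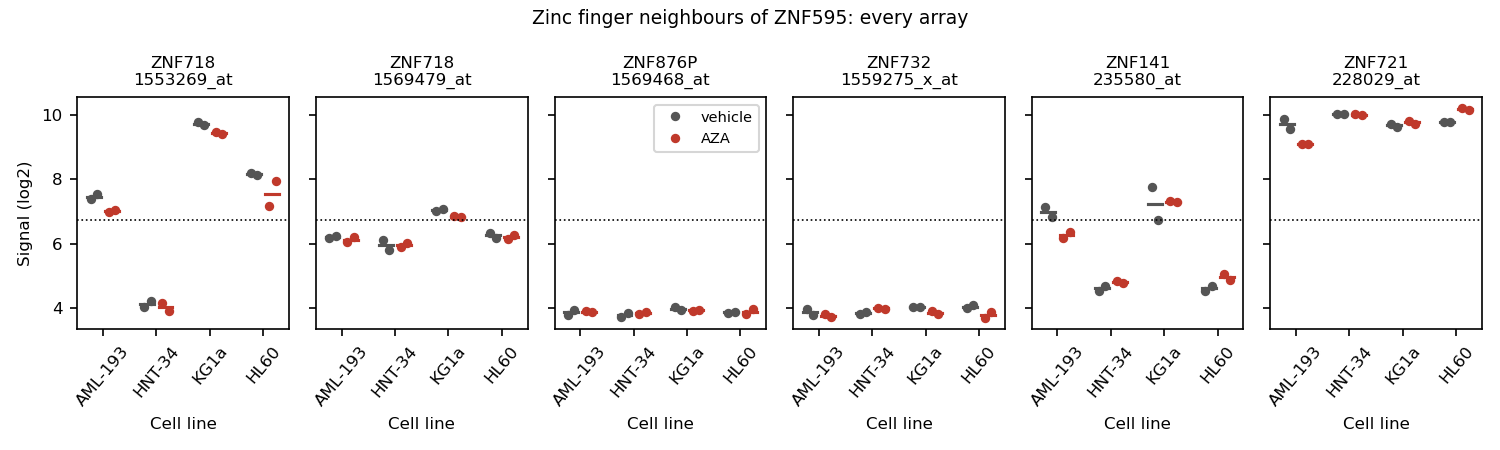
Log2 signal on every array for probe sets of 5 zinc finger neighbours of ZNF595, by cell line, with vehicle in grey and AZA in red, bars for means of 2 arrays and a dotted line at the array median. The ZNF718 probe set shown in HNT-34 (4.13 and 4.03), ZNF141 in HNT-34 and HL60, and ZNF876P and ZNF732 in all lines have means below 5 in both arms.

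Of the 17 neighbours tested, 1 rose and 7 fell in AML-193, where 20.7% of all genes tested were called higher and 20.2% lower. FGFRL1, a decoy receptor gene for fibroblast growth factors, rose there (0.54 ± 0.14, adjusted p = 0.0087), and ZNF141, ZNF721, PIGG, ATP5ME, PCGF3, GAK and CTBP1 fell, by 0.30 (CTBP1, a co-repressor gene) to 0.83 (ZNF721) log2 units. With the integrity covariate limma called 0 of the 17 in AML-193, and 1 had an unadjusted p under 0.05; PCGF3 (0.22) and PIGG (0.09) then had the opposite sign, like ZNF141. In HL60 6 rose and 2 fell (25.2% and 16% of all genes): ATP5ME, an ATP synthase subunit gene, rose most (0.78 ± 0.10, adjusted p = 5.62e-05), followed by ZNF721, PCGF3, PIGG, a glycolipid anchor enzyme gene, GAK and CTBP1, while ZNF718 and FGFRL1 fell. With the covariate 1 of the 17 was called in HL60, and PCGF3 was at -0.01.

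In HNT-34 PCGF3 (0.48 ± 0.13, adjusted p = 0.0119) and DGKQ, a diacylglycerol kinase gene (0.27 ± 0.09, adjusted p = 0.0363), rose and MYL5, a myosin light chain gene, fell (-0.40 ± 0.07, adjusted p = 0.000836), against 15.4% and 14.8% of all genes. In KG1a IDUA rose (0.40 ± 0.08, adjusted p = 0.00842) and MYL5 fell (-0.25 ± 0.07, adjusted p = 0.0422), against 6.56% and 3.36%. These counts depended on single arrays. Without HNT-34 vehicle array 1, AZA array 1 or AZA array 2 the HNT-34 count of 3 went to 1, and the KG1a count of 2 went to 0 without KG1a vehicle array 2 or AZA array 2 and to 1 without KG1a AZA array 1, either AML-193 AZA array or any HNT-34 array. Over all genes the KG1a count of 1393 was 876 without KG1a vehicle array 1, 683 without AZA array 1 and 672 without AZA array 2. In AML-193 the count of 8 went to 4 without vehicle array 1 and 5 without AZA array 2, and in HL60 it went from 8 to 5 without vehicle array 2 or AZA array 1. The median change of the neighbours was -0.28 in AML-193, 0.09 in HNT-34, 0.00 in KG1a (-0.02 with equal medians) and 0.13 in HL60, beside 0.02, 0.01, 0.02 and 0.05 over all genes tested.

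The upstream window of ZNF595 was most like those of other zinc finger genes. In global alignments with the 27302 other windows, ZNF141 was the closest at 83.1% identity, and the median was 46.2%; ZNF718 was at 42.2%. Identity was at least 60% for 37 windows, a limit set after the identities were seen. Of these, 34 belong to genes named ZNF, 25 lie on chromosome 19, 7 on chromosome 7 and 1 on chromosome 4. After ZNF141 the closest named gene was ZNF519 (74.6%), followed by ZNF431 (67.7%) and ZNF724 (67.2%).

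Of the 37 genes, 25 had a probe set of their own, 57 probe sets in all, and none was higher by 1 log2 unit or more after AZA in any line. The share of all probe sets with such a rise was not counted, so this count is not read as a trait of these genes. In HNT-34 the changes ran from -0.41 (ZNF519) to 0.56 (ZNF93), in KG1a from -0.56 (ZNF141) to 0.42 (ZNF107) and in HL60 from -0.59 (ZNF92) to 0.62 (ZNF100). A vehicle mean under 5 was found for 12 of the 57 probe sets in AML-193, 11 in HNT-34, 6 in KG1a and 19 in HL60 (21.1%, 19.3%, 10.5% and 33.3%), beside 19.3% of all probe sets in the first 3 lines and 19.4% in HL60. The largest change among these low probe sets was 0.25 in AML-193, 0.34 in HNT-34, 0.03 in KG1a and 0.36 in HL60.

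Of the 37 genes, 21 passed the filter and were tested. In HNT-34 4 of them rose and 0 fell (1 was lower at an unadjusted p under 0.05), beside 15.4% and 14.8% of all genes: ZNF93 (0.56), ZNF100 (0.39), ZNF430 (0.35) and ZNF257 (0.34), each with a limma adjusted p of at most 0.0281. In HL60 4 rose, ZNF100 (0.62), ZNF430 (0.38), ZNF257 (0.33) and ZNF92 (0.27), and ZNF254 fell (-0.47), each at an adjusted p of at most 0.043, beside 25.2% and 16% of all genes. In KG1a limma called 0 of 21, with 1 higher and 1 lower at an unadjusted p under 0.05, and 0 in a fit of that line alone, beside 6.56% and 3.36% of all genes. In AML-193 12 fell and 1 rose (20.2% and 20.7% of all genes), with ZNF682 lowest (-1.20 ± 0.14, adjusted p = 3.99e-05, though that call was lost with the integrity covariate) and ZNF93 the 1 that rose (0.57 ± 0.09, adjusted p = 0.000369). With the covariate 0 of the 21 were called higher and 1 lower in AML-193. The medians of the 21 were 0.20 in HNT-34, -0.08 in KG1a, 0.14 in HL60 and -0.41 in AML-193.

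**Figure D4:**
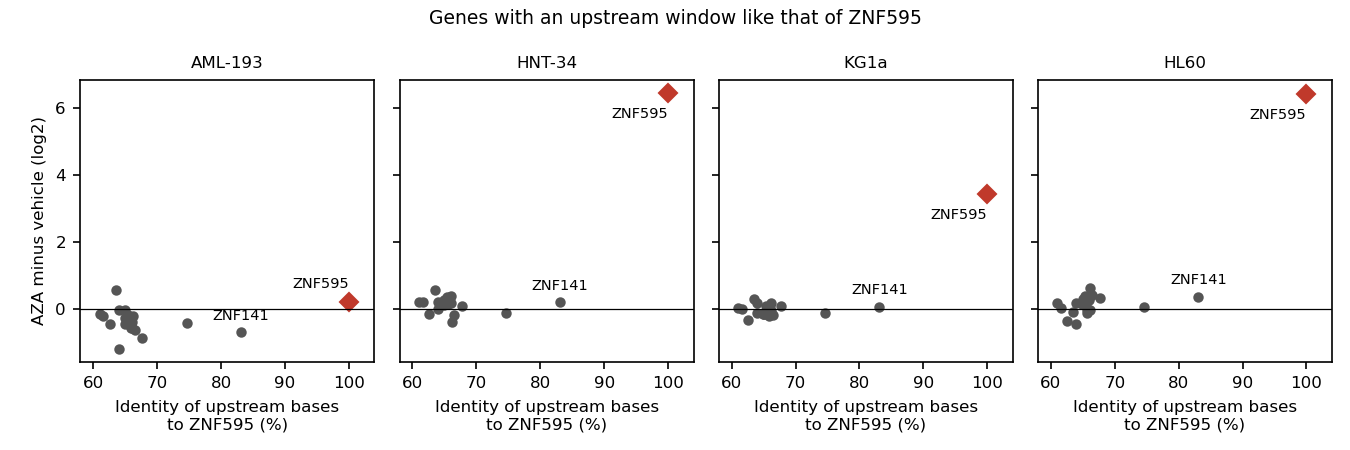
AZA minus vehicle in log2 units in each cell line against the identity of the 250 upstream bases to those of ZNF595, in percent, for the 21 tested genes at 60% or more (grey points) and ZNF595 (red diamond). ZNF141 at 83.1% lies between -0.71 and 0.36, and no grey point exceeds 0.62.

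ZNF595 was chosen for its rise, so its place among all genes named ZNF with a number is a description with no test. It had the largest rise of them in HNT-34, KG1a and HL60. Of 360 other such genes tested, 0 had a rise as large as that of ZNF595 in these lines. By at least 1 log2 unit 1, 1 and 5 of them rose, and the share of all genes that did so was not counted. In AML-193 65 of the 360 had a change at least as high as its 0.20. Calls among the 360 numbered 35 higher and 35 lower in HNT-34, 4 and 8 in KG1a, 97 and 61 in HL60, and 34 and 119 in AML-193. As shares, 19.4%, 3.33%, 43.9% and 42.5% of the ZNF genes were called, beside 30.2%, 9.92%, 41.2% and 40.9% of all genes.

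The counts of the ZNF genes depend on the arrays and the scaling. With the integrity covariate 43 were called in HL60 and 3 in AML-193. With equal medians the split was 68 higher and 85 lower in HL60, where the list median turned from 0.07 to -0.02, and 1 and 14 in KG1a, while over all genes it was 2565 and 3180 in HL60 and 790 and 623 in KG1a, against 3541 and 2252, and 921 and 472. The HNT-34 count of 70 was 41 without vehicle array 2, 46 without AZA array 1 and 42 without AZA array 2. The HL60 count of 158 was 103 without vehicle array 2 and 99 without AZA array 1. The KG1a count of 12 was 0 without KG1a AZA array 1 or AZA array 2, 3 without vehicle array 1 and 5 without either HNT-34 AZA array.

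The largest ZNF rises after that of ZNF595 were ZNF185 in HNT-34, which despite its name encodes a LIM domain protein (1.26 ± 0.10, adjusted p = 6.09e-07), ZNF703 in KG1a (1.07 ± 0.11, adjusted p = 2.53e-05) and ZNF432 in HL60 (1.37 ± 0.10, adjusted p = 6.39e-07). In HNT-34 ZNF175 (0.86), ZNF513 (0.77), ZNF641 (0.76) and ZNF211 (0.73) followed, and in HL60 ZNF300 (1.30), ZNF502 (1.18), ZNF514 (1.12) and ZNF468 (1.06). ZNF185 also rose in HL60 and AML-193, by 0.84 and 0.82, and changed by 0.30 in KG1a. ZNF432 changed by 0.09 in HNT-34 and -0.02 in KG1a, and ZNF703 by -0.11 in HNT-34 and -0.05 in HL60. The largest falls were ZNF467 in HNT-34 (-1.01 ± 0.08, adjusted p = 6.29e-07) and ZNF277 in HL60 (-1.85 ± 0.15, adjusted p = 1.09e-06). In AML-193 ZNF786 rose (0.89 ± 0.10) and ZNF682, ZNF827 (-1.15 ± 0.20) and ZNF623 (-1.07 ± 0.11) fell, but with the integrity covariate none of these 4 was called.

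Genes for the partners through which KRAB zinc finger proteins silence their targets changed by less than 1 log2 unit in every line. Of 24 tested, 8 fell in HNT-34 (14.8% of all genes were called lower) and limma called 0 higher, also at an unadjusted p under 0.05, against 15.4% of all genes. The falls were led by CBX5, a heterochromatin protein gene (-0.71 ± 0.11, adjusted p = 0.000383), MTA1, a subunit gene of the NuRD deacetylase complex (-0.59 ± 0.09, adjusted p = 0.000311), and TASOR, a HUSH complex gene (-0.47 ± 0.10, adjusted p = 0.00267). The count was 4, and TASOR was not called, with the mean of each gene's probe sets. In HL60 8 rose and 3 fell (25.2% and 16% of all genes), with the histone methyltransferase gene EHMT2 at 0.62 ± 0.10 (adjusted p = 0.000336) and TRIM28 at 0.59 ± 0.14 (adjusted p = 0.0037), while CBX5 fell (-0.58 ± 0.11, adjusted p = 0.00141). With the covariate 3 were called in HL60, and TRIM28 was not among them.

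In KG1a TASOR (-0.34 ± 0.10, adjusted p = 0.0466) and MTA1 (-0.32 ± 0.09, adjusted p = 0.0464) fell, both close to the threshold, against 3.36% of all genes called lower, and the count was 0 without any 1 of the 4 AML-193 arrays, KG1a vehicle array 1, either KG1a AZA array or either HL60 vehicle array, and 1 without either HL60 AZA array. In AML-193 13 fell and 3 rose (20.2% and 20.7% of all genes), with MTA1 lowest (-0.78 ± 0.09, adjusted p = 4.19e-05), but with the covariate limma called 0, with 2 lower at an unadjusted p under 0.05, and the count was 9 without vehicle array 1, 8 without AZA array 1 and 7 without AZA array 2. TRIM28 itself did not pass in HNT-34 (-0.29 ± 0.14), KG1a (-0.09 ± 0.14) or AML-193 (-0.04 ± 0.14). The medians of the list were -0.18 in HNT-34, -0.06 in KG1a, 0.11 in HL60 and -0.24 in AML-193, the last 0.02 with the covariate.

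Of 18 tested genes of the DNA methylation machinery, 3 rose and 6 fell in HNT-34, 1 fell in KG1a, 7 rose and 1 fell in HL60, and 2 rose and 7 fell in AML-193. The shares called, 50% in HNT-34, 5.56% in KG1a, 44.4% in HL60 and 50% in AML-193, stand beside 30.2%, 9.92%, 41.2% and 40.9% of all genes. HELLS, a helicase gene needed for DNA methylation, fell in HNT-34 (-1.02 ± 0.20, adjusted p = 0.00157) and rose in HL60 (1.04 ± 0.20, adjusted p = 0.00114). The HL60 call was lost with the covariate and with averaged probe sets, and any link to ZNF595 was not tested. UHRF1, which guides DNMT1 to copied DNA, also fell in HNT-34 (-0.85 ± 0.08, adjusted p = 2.39e-06). TET1, a 5-methylcytosine oxidase gene, fell in KG1a (-0.45 ± 0.11, adjusted p = 0.0166), a call lost without KG1a vehicle array 1 or either AZA array.

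In AML-193 the de novo methyltransferase gene DNMT3B fell (-1.23 ± 0.12, adjusted p = 7.94e-06). TET2 rose there (1.09 ± 0.15, adjusted p = 0.000149) from a low vehicle mean of 4.62. Neither was called with the covariate, under which limma called 0 of the 18 and 2 were lower at an unadjusted p under 0.05. TET2 also rose in HNT-34 (0.53 ± 0.15, adjusted p = 0.0193) and HL60 (0.75 ± 0.15, adjusted p = 0.0018), and changed by 0.13 in KG1a. In HL60 2 of the 18 were called with the covariate, and the split with equal medians was 5 higher and 3 lower. The HNT-34 count of 9 was 5 without AZA array 2, and the KG1a count of 1 was 3 without vehicle array 2. The list medians were -0.01 in HNT-34, -0.11 in KG1a, 0.20 in HL60 and -0.17 in AML-193.

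Few genes had large rises in HNT-34, KG1a and HL60 together, as ZNF595 did. Of 14049 genes tested, only ZNF595, chosen for its rise, was higher by at least 3 log2 units in HNT-34, KG1a and HL60 at once. With a limit of 2 there were 3, the others being COL14A1 (2.52, 6.77 and 4.88) and PRG2, an eosinophil granule protein gene (2.42, 5.96 and 2.55). In AML-193 these changed by 0.50 and -0.05. Unlike ZNF595, both changed most in KG1a.

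By Pearson correlation over the 8 group means, among 2802 genes whose means spanned at least 2 log2 units, the genes closest to 227952_at were GCNA (r = 0.921), TRPM4 (0.882), MYO5C (0.866), CREB5 (0.860), MAGEA6 (0.857) and PKIB (0.830). The means share the same arrays and the contrast that chose ZNF595, so these values, and the changes of these 6 genes, are a description with no test. Over the 16 single arrays 5 of these 6 were again among the first 6. GCNA, a germ cell gene, read 6.85 and 6.72 with vehicle against 10.71 and 10.82 with AZA in HNT-34, and 6.83 and 6.54 against 10.74 and 10.78 in HL60. It was higher by 3.98 and 4.07 there, with no overlap, and by 1.33 in KG1a.

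In AML-193, 4 of these 6 genes were higher by more than 1 log2 unit, unlike ZNF595. GCNA read 5.75 and 6.19 with vehicle against 8.48 and 8.58 with AZA, a difference of 2.56, and TRPM4, a cation channel gene, MYO5C, a myosin gene, and CREB5, a transcription factor gene, were higher by 2.17, 1.40 and 1.59. MAGEA6, a cancer-testis antigen gene, and PKIB, a protein kinase inhibitor gene, differed by 0.26 and 0.45 in AML-193 and by 0.13 and 0.46 in KG1a. In HNT-34 and HL60 MAGEA6 was higher by 2.84 and 1.35, and PKIB by 1.76 and 2.70. None of the 6 was higher by at least 1 log2 unit in KG1a and by less than that in AML-193.

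**Figure D5:**
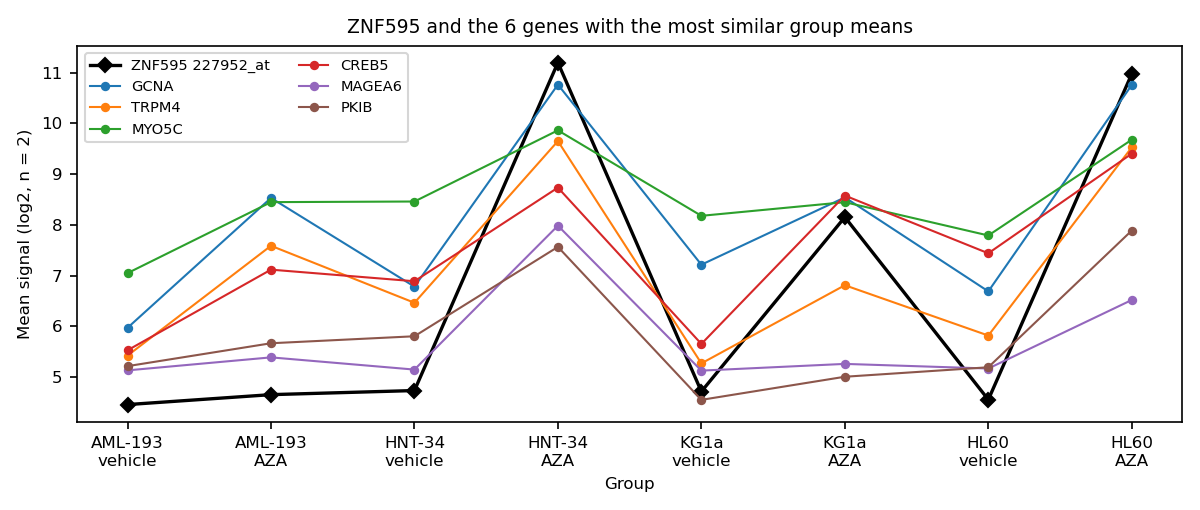
Mean log2 signal (n = 2 arrays) in each of the 8 groups for ZNF595 probe set 227952_at (black) and the 6 genes with the highest Pearson r to it; lines join groups only to guide the eye. GCNA, TRPM4, MYO5C and CREB5 are also higher with AZA in AML-193, where ZNF595 is at 4.65.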

How the data were processed

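The data are 1 table of 54675 probe sets on 16 arrays, of which 62 are array controls. The deposited log2 signals were produced by RMA in the affy package (no version given), per the submitters' processing notes; the log base is not given in the sources used here and was taken from the range of 3.26 to 15.34. The number of arrays limits the precision.

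Probe sets were named from the array annotation supplied with the data, updated by gene identifier to a RefSeq gene table of GRCh38.p14. With 1 symbol there were 41091 probe sets, with several 1801 and with none 11721. For tests across genes, the probe set with the highest mean stood for each gene, and genes at or above the array median on at least 2 arrays were kept (14049). All 8 groups were fitted with limma (3.58.1, R 4.3.3), 1 mean per group, 8 residual and 4.8 prior degrees of freedom; adjusted p-values are from its moderated tests with Benjamini-Hochberg adjustment over all genes tested, at 0.05. The fit was tested on simulated data. Errors of single probe sets come from the same fit over all 54613.

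The gene, the lists and the tests were chosen with earlier results of these data known. Named are all ZNF595 probe sets; the measured neighbours; from the partner and methylation lists, the 4 or fewer called members per line that changed most; up to 5 called ZNF genes with the largest rise and 3 with the largest fall per line; and the 6 genes closest in pattern with a span of at least 2 log2 units. Text space decided which of the eligible genes are given. Markers were from a short list, and genes named from the upstream comparison (Biopython 1.88, match 2, mismatch -1, gap opening -4, extension -1) and as rising in 3 lines were chosen after their values were seen. A planned comparison with protein paralogues was not made, as no protein sequences are used here. Alternatives were quantile normalization again, equal medians, no filter and a filter on 4 arrays, averaged probe sets, every probe set tested, a fit of 1 line, the integrity covariate, each other ZNF595 probe set, and each array left out.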

Additional observations from a re-analysis of the deposited data

Results flagged for a closer look

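For 11 of the 17 neighbours tested (64.7%, beside 57% of all genes tested) the effect of AZA differed between the 4 lines by limma's moderated F-test, which is what singled them out. The adjusted p was 0.0478 for ZNF141, 0.00153 for ZNF721, 0.0024 for PIGG, 9.91e-05 for ATP5ME, 0.0149 for MYL5 and 0.000665 for PCGF3. It was 0.000328 for GAK, 0.0296 for DGKQ, 0.0294 for IDUA, 0.00929 for FGFRL1 and 0.00204 for CTBP1. ATP5ME changed by -0.46 in AML-193, 0.09 in HNT-34, 0.00 in KG1a and 0.78 in HL60, and ZNF721, PIGG, GAK and CTBP1 were likewise lowest in AML-193 and highest in HL60. In these 2 lines the 3′ minus 5′ control signal moved in opposite directions between the arms (1.27 to 0.20, and 0.04 to 0.72), and its part in the differences was not tested. The effects on ZNF595 were not tested, since the gene was chosen for them.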

How the results depend on the processing

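Without 1 array of the line, the 227952_at difference of ZNF595 ranged from 6.39 to 6.55 in HNT-34, 6.29 to 6.55 in HL60 and 3.37 to 3.51 in KG1a. In AML-193 (0.20) it was 0.0034 without AZA array 1 and 0.39 without AZA array 2. With the integrity covariate it was 6.23 in HL60 and 0.50 in AML-193. Averaging both probe sets of ZNF595 alone gave 3.86 in HNT-34, 1.52 in KG1a and 3.42 in HL60. Probe set 1570038_at gave 1.24, -0.41, 0.41 and -0.21 in HNT-34, KG1a, HL60 and AML-193, 1559746_a_at gave -0.011, -0.33, 0.029 and -0.10, and 208542_x_at gave 0.31, -0.125 and 0.040 in the first 3. No detection calls were used, so low signals cannot be told from background, and changes from such signals may be larger than given.

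Counts of called genes moved with the fit. Over all genes the integrity covariate gave 373 in AML-193 (5751 without it) and 2149 in HL60 (5793), testing every probe set gave 10803 in AML-193, 6711 in HNT-34 (4245) and 10949 in HL60, from more tests, and a fit of KG1a alone gave 844 (1393). Without 1 array they ranged from 3991 to 6091 in AML-193, 2843 to 4557 in HNT-34, 672 to 1608 in KG1a and 4295 to 6045 in HL60. With the covariate, the neighbours, partners, methylation genes and ZNF genes called were 0, 0, 0 and 3 in AML-193 and 1, 3, 2 and 43 in HL60. In KG1a no filter gave 1 neighbour, 0 partners and 5 ZNF genes, and the fit of that line alone 0, 0 and 2. Every probe set tested gave 1 partner and 3 methylation genes in KG1a and 13 methylation genes in HL60, averaged probe sets 4 partners in HNT-34 and 2 methylation genes in KG1a, and a fit of HL60 alone 5 methylation genes. The cause of these shifts was not tested.

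Leaving out 1 array gave 4 to 9, 1 to 3, 0 to 3 and 5 to 10 neighbours in AML-193, HNT-34, KG1a and HL60, 7 to 16, 6 to 9, 0 to 2 and 8 to 13 partners, 6 to 11, 5 to 10, 0 to 3 and 6 to 10 methylation genes, and 105 to 164, 41 to 84, 0 to 16 and 99 to 168 ZNF genes. Of 98 changes of named genes, 6 turned their sign, each with the covariate: in AML-193 ZNF141 (0.16), PCGF3 (0.22), PIGG (0.085), ATF7IP (0.043) and CHD4 (0.021), and in HL60 PCGF3 (-0.010). With the covariate 62 of the 98 kept their call, and 30 kept their sign but lost the call. Calls were also lost when single arrays were left out. No paired analysis was possible because the labels give the arrays no replicate numbers.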
